A study of Mus musculus with 16 samples.

Results

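The metabotropic glutamate receptors examined here are the products of Grm2, Grm3, Grm4, Grm5, Grm7 and Grm8, which were taken by gene symbol from the 24972 genes listed for each of 16 mouse hippocampal libraries. All 6 genes were found and all 6 passed the filter on low values in every comparison. They were taken as a gene family by a rule that uses no measured value, although earlier results of these data were known when it was set. The study asked how gene expression in hippocampal subregions differs after an active place avoidance memory. Bulk RNA sequencing was made from CA1, CA3 and dentate gyrus (DG) tissue that was microdissected from the dorsal hippocampus, and the pieces of one animal were pooled by subregion. All animals were adult ArcCreERT2::eYFPflx mice on a C57BL/6 background, 3 to 4 months old. They carry an inducible Cre under an Arc promoter and, separately, a floxed eYFP reporter. Trained mice learned over 4 trials to avoid a zone of a rotating arena where they received foot shocks. Untrained mice spent the same time in the arena with the shock off. Tissue was taken 60 min after a memory retention test, which was given 24 h after the last training trial. CA1 had 3 trained and 3 untrained libraries, CA3 had 3 trained and 2 untrained, and DG had 3 trained and 2 untrained. The untrained libraries came from replicates 1 and 2 in CA3 and from replicates 1 and 3 in DG. According to the methods, the trained mice were 2 females and 1 male and the untrained mice 1 female and 2 males.

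Metabotropic glutamate receptors are G protein-coupled receptors that sense the same transmitter as the AMPA and NMDA channels but act through second messengers. Group I receptors, here Grm5, couple to Gq and phospholipase C, lie mostly around the postsynaptic density and are tied to Homer scaffolds. Group II (Grm2 and Grm3) and group III (Grm4, Grm7 and Grm8) couple to Gi/o proteins, lower cyclic AMP, and mostly sit on axon terminals, where they restrain transmitter release. Hippocampal mossy fibre terminals are a classical site of group II receptors, and the perforant path is one of group III receptors.

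Before the receptors were compared, the labelled subregions were checked against their defining genes. None of 13 subregion markers passed the test in any contrast between subregions. The summed value of 5 dentate granule cell markers (Prox1, C1ql2, Dsp, Tdo2 and Plk5) spanned 5493 to 6837 in libraries labelled CA1, 5136 to 8640 in those labelled CA3 and 6122 to 7879 in those labelled DG. The summed value of 4 CA1 pyramidal markers (Wfs1, Fibcd1, Mpped1 and Spink8) spanned 1412 to 4662, 825.4 to 1500 and 1232 to 1868 in the same order. Sums of 4 CA3 pyramidal markers (Grik4, Iyd, Cdh24 and Npy2r) spanned 695.3 to 1069, 744.9 to 1496 and 987.9 to 1237. These granule cell ranges overlapped between the labels, although in untrained mice the 3 CA1 sums (5493 to 6837) lay below the 2 DG sums (7324 and 7879). The CA1 pyramidal sums of untrained mice did not overlap either, with 2903 to 4662 in CA1, 825.4 and 1145 in CA3, and 1496 and 1570 in DG. In trained mice they overlapped, with 1412 to 1786, 891.9 to 1500 and 1232 to 1868. With no marker past the test in contrasts that pool trained and untrained libraries, "CA1", "CA3" and "DG" below mean the label. The CA3 library of untrained replicate 1 had an Xist value of 10587.5, against 26.1 and 25.5 in CA1 and DG of the same animal. That library went against its own animal, and values are given with and without it. Its Ddx3y value, from the Y chromosome, was 201.4, against 448.4 to 552.8 in the other untrained libraries and 1.7 to 255.2 in the trained ones. Trained DG replicate 3 was also mixed, with an Xist value of 7601.3 and a Ddx3y value of 255.2. The summed value of 4 Y-linked genes was 267.8, 233.9 and 677.7 in CA1, CA3 and DG of trained replicate 3, and 202.5, 26.2 and 3.7 in those of trained replicate 1. Whether samples were exchanged or mixed was not tested. Leaving out 1 untrained library of CA3 or DG leaves a single one, which the fit then assumes to vary as the trained libraries do. Xist lay between 7601 and 19592 in all 9 trained libraries and between 25.5 and 52.4 in the other 6 untrained ones. It therefore divided the libraries almost as training did, and did not follow the sexes that the methods state. Between 7567 and 9759 genes were at 0 in 7 libraries (the 3 trained CA1, the first and second trained CA3 and the 2 untrained DG libraries) and between 3124 and 5944 in the other 9. In bulk tissue, fewer cells of a type and less RNA per cell cannot be told apart.

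Levels of the 6 genes were compared per kilobase of the transcript with the longest coding sequence, since the values are not scaled for length. The group I gene Grm5 was the highest, with 915.1 ± 42.2 (SD, n = 16 libraries) normalized units per kilobase. Grm7 followed with 264.9 ± 23.3, Grm3 with 226.3 ± 13.2 and Grm2 with 170.0 ± 27.3. Grm8 had 13.1 ± 2.89 and Grm4 11.3 ± 3.11. These group III genes were far below the rest, and the ratio of Grm2 to Grm8 was between 10.5 and 19.5 in single libraries. The step from Grm5 to Grm7 held in 16 of 16 libraries, with a ratio between 2.96 and 4.19. Grm7 exceeded Grm3 in 15 of 16 libraries and Grm3 exceeded Grm2 in 15 of 16. Grm8 exceeded Grm4 in 10 of 16, with ratios from 0.682 to 2.22, so these neighbours did not differ beyond their spread. With the median length of all protein-coding transcripts in its place, Grm2 was at 367.3 per kilobase, above Grm3 at 226.3, so the order of these 2 genes depends on the transcript that is counted.

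**Figure D1:**
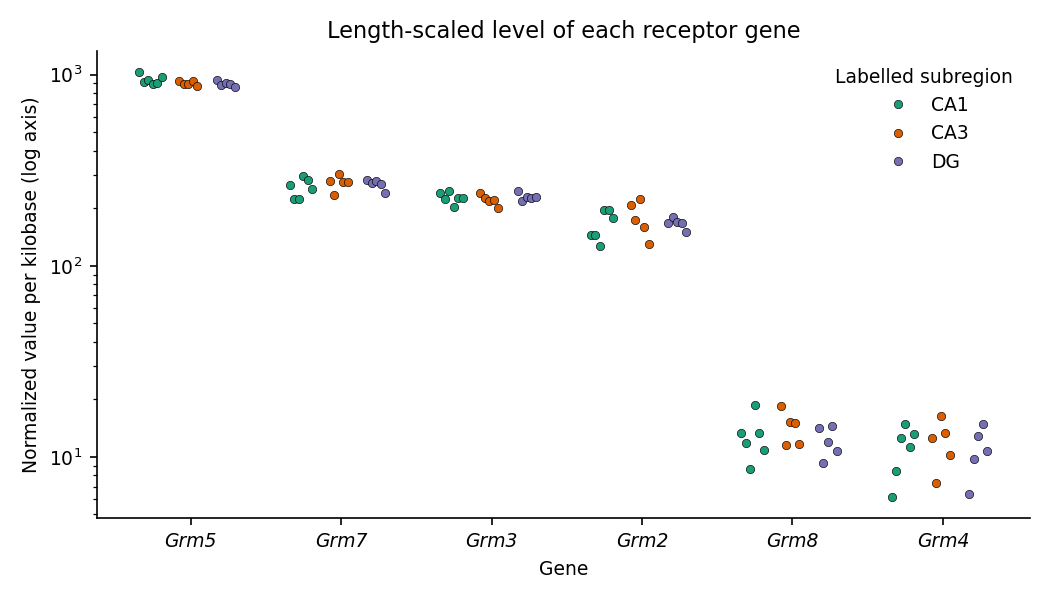
Normalized value per kilobase of the transcript with the longest coding sequence (log axis) for the 6 receptor genes, with 1 point per library coloured by labelled subregion (CA1, n = 6; CA3, n = 5; DG, n = 5). Grm5 stands highest with a mean of 915.1, Grm7, Grm3 and Grm2 form a middle tier between 264.9 and 170.0, and Grm8 and Grm4 overlap near 13.1 and 11.3.

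No receptor gene differed between the labelled subregions by more than the test required. None of the 6 genes passed limma's test in CA1 against CA3, in CA1 against DG or in CA3 against DG, and none had an unadjusted p under 0.05 there. Over all 14673 genes tested, 0.334%, 1.8% and 0% passed in the same contrasts, and 660 genes had an unadjusted p under 0.05 in CA3 against DG. Grm5, for example, had a mean of 4246 ± 236 (SD, n = 6) in CA1, 4057 ± 97.6 (SD, n = 5) in CA3 and 4025 ± 124 (SD, n = 5) in DG. The log2 difference between CA1 and DG was 0.081 (95% interval -0.009 to 0.171), the narrowest interval of the 6 genes in that contrast. Grm4 left the widest interval in each of these contrasts. Its log2 difference between CA3 and DG was 0.254, with an interval from -0.146 to 0.653. Without the CA3 library of untrained replicate 1, the log2 difference of Grm4 between CA1 and CA3 moved from -0.131 to 0.064 and that of Grm2 between CA3 and DG from 0.071 to -0.024.

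Grm2, the presynaptic group II autoreceptor of mossy fibre and other glutamatergic terminals, was higher in CA1 libraries of trained mice. It lies on the minus strand of GRCm38 at chr9:106643095-106656082. Trained CA1 replicates 1, 2 and 3 had values of 927.5, 926.0 and 835.8. Untrained CA1 replicates 1, 2 and 3 had values of 686.5, 681.9 and 598.6. The lowest trained value exceeded the highest untrained value. The means were 896.5 ± 52.5 and 655.7 ± 49.5 (SD, n = 3 each), which gave a log2 fold change of 0.451 (its standard error was 0.075, and adjusted p = 0.00111 by limma with Benjamini-Hochberg adjustment over 13588 genes). Among all genes tested in CA1, 5.23% passed the test, 3.53% higher and 1.7% lower in trained mice, and the trained and untrained libraries of 24% of genes did not overlap. Without trained replicate 1 or 3, both with some Y-linked signal, the change was 0.426 (adjusted p = 0.00943) and 0.501 (adjusted p = 0.00129). Grm2 was the only one of the 6 receptors to pass in CA1, and it did not pass in one limma fit of all libraries (adjusted p = 0.105).

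The rise of Grm2 was not seen in the other subregions. In CA3 the trained libraries had 1054.8, 749.9 and 613.9 (replicates 1 to 3) and the untrained ones 984.0 and 822.3 (replicates 1 and 2). The groups overlapped widely, with a log2 fold change of -0.194 (standard error 0.248, adjusted p = 0.755), and without single libraries it ran from -0.406 (without trained replicate 1, adjusted p = 0.0812) to -0.016 (without trained replicate 3). Without untrained replicate 1 it was -0.065. In DG the trained libraries had 799.4, 788.0 and 711.0 and the untrained ones 787.6 and 850.2 (replicates 1 and 3), again overlapping, with a log2 fold change of -0.097 (standard error 0.083, adjusted p = 0.571). The difference between subregions was itself tested. The training effect on Grm2 in CA1 minus that in CA3 was 0.645 on the log2 scale (standard error 0.223, unadjusted p = 0.0127, limma adjusted p = 0.567), and in CA1 minus DG it was 0.548 (standard error 0.223, unadjusted p = 0.0291, limma adjusted p = 0.22). Neither passed after adjustment over all genes, so an effect particular to CA1 is not shown. Across all genes 0.0273%, 2.75% and 0.164% passed for CA1 minus CA3, CA1 minus DG and CA3 minus DG, and none of the 6 receptors did in any of them.

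Several measures moved together with Grm2 in CA1. All 3 trained CA1 libraries were among the 7 with many genes at 0 and no untrained CA1 library was, so within CA1 training and this property cannot be told apart. Over all subregions Grm2 was 876.0 ± 103 (SD, n = 7) in libraries with many genes at 0 and 742.8 ± 120 (SD, n = 9) in the others, and its log2 value had a Pearson correlation of 0.593 with the number of genes at 0 across the 16 libraries. Subregion markers moved as well. Of 4 CA1 pyramidal markers 1 fell (Fibcd1, log2 fold change -1.32) and 0 rose, and the summed value was 1412 to 1786 in trained against 2903 to 4662 in untrained CA1 libraries. Of 4 CA3 pyramidal markers 3 rose (Grik4, Cdh24 and Npy2r) and the sum was 1047 to 1069 against 695.3 to 726.2. Of 5 granule cell markers none passed, with sums of 6532 to 6792 against 5493 to 6837. Of 5 astrocyte markers 1 fell (Aqp4, -0.349, adjusted p = 0.00149), with sums of 9548 to 9908 in trained against 10282 to 10705 in untrained CA1 libraries, which did not overlap. Of 3 endothelial markers none passed, with sums of 520.9 to 560.2 against 475.5 to 479.1. Xist was at least 17309.7 in the 3 trained and at most 52.4 in the 3 untrained CA1 libraries, which also cannot be told apart from training. The part of the marker differences in the Grm2 result was not tested. A single model of the 16 libraries, in which CA3 and DG also set the spread, left the change of Grm2 in CA1 at 0.451 and gave an adjusted p of 0.105, which ends the call.

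Grm3, the other group II receptor, which is made by astrocytes as well as neurons, did not follow Grm2. It lies on the minus strand at chr5:9485541-9725170. Trained CA1 libraries had 619.5, 689.6 and 689.3 and untrained ones 735.4, 681.0 and 754.7, which overlapped. Trained minus untrained was -0.12 on the log2 scale (standard error 0.074, adjusted p = 0.407). In CA3 the values were 666.5, 670.0 and 614.7 in trained and 732.4 and 688.9 in untrained libraries. All trained libraries lay below both untrained ones, yet the change of -0.128 (standard error 0.081) did not pass (adjusted p = 0.473), and 33.9% of all genes in CA3 had groups that did not overlap. In DG the trained values of 699.3, 685.8 and 698.5 lay between the untrained values of 750.8 and 663.5. Across all 16 libraries the log2 fold change of Grm3 was -0.093 (standard error 0.045, unadjusted p = 0.0509, limma adjusted p = 0.199). Of 5 astrocyte markers, Aqp4 and Gja1 fell over all libraries, by 0.3 and 0.183 on the log2 scale, and the other 3 did not pass. Their part in the values of Grm3 was not tested.

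The promoters of the 2 group II genes are shown because one passed the test in CA1 and the other did not. The 250 bases before the RefSeq start (GRCm38.p6, minus strand for both) are chr9:106656110-106656359 for Grm2 and chr5:9725353-9725602 for Grm3. Capitals mark the GC box GGGCGG, the core of the site of Sp-family factors, which was searched on both strands:
Grm2: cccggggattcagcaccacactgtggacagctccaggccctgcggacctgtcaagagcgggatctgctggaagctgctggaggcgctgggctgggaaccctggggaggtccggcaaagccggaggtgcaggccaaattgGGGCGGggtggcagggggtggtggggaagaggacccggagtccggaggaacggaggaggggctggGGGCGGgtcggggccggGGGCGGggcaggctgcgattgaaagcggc
Grm3: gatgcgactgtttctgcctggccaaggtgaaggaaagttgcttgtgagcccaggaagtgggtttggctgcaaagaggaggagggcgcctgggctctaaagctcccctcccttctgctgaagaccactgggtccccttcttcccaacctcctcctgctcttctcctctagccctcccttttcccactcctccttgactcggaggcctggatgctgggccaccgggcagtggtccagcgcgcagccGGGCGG
The Grm2 window held 3 GC boxes, beginning 111, 46 and 29 bases before the start, and the Grm3 window held 1, beginning 6 bases before it. Of 32851 promoter windows of this length 32.7% held at least 1 and 8.47% held 3 or more. The Grm2 window had a GC content of 71.2% and the Grm3 window 62.4%, against a median of 52.4% over all windows. Neither held the cAMP response element TGACGTCA, the E-box CACGTG, the Egr site GCGTGGGCG or TATAAA on either strand. These letters occurred in 1.55%, 6.02%, 0.536% and 12.4% of all windows. RefSeq windows were found for 4 of the 6 receptors (Grm2, Grm3, Grm7 and Grm8).

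Grm4, a presynaptic group III receptor with low expression in hippocampus, was higher in trained mice when the 3 subregions were combined. It lies on the minus strand at chr17:27422387-27521403. Trained libraries had values of 68.7, 52.1 and 60.8 in CA1, 75.7, 61.8 and 46.8 in CA3, and 59.3, 68.5 and 49.2 in DG. Untrained libraries had 28.5, 38.8 and 57.8 in CA1, 57.8 and 33.5 in CA3 (replicates 1 and 2), and 29.3 and 44.5 in DG (replicates 1 and 3). Trained libraries were mostly above untrained ones, and the groups overlapped in CA1 and CA3 but not in DG. The 9 trained libraries averaged 60.3 ± 9.71 (SD) and the 7 untrained ones 41.5 ± 12.4 (SD). With subregion as a term, the change was 0.555 on the log2 scale (standard error 0.155, adjusted p = 0.0227). Of all 14673 genes 10.3% passed in this comparison, 6.28% higher and 4.06% lower in trained mice. Grm4 was 1 of 6 receptors to do so.

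Within single subregions Grm4 had fold changes in the same direction that did not pass. In log2 terms it was 0.563 in CA1 (standard error 0.245, adjusted p = 0.214), 0.435 in CA3 (standard error 0.266, adjusted p = 0.46) and 0.666 in DG (standard error 0.254, adjusted p = 0.158). The CA3 value rested on which untrained library was kept, with 0.812 without replicate 1 (adjusted p = 0.451) and 0.059 without replicate 2 (adjusted p = 0.938). With single libraries left out, the value ran from 0.331 (without untrained replicate 1) to 0.816 (without untrained replicate 3) in CA1, and in DG from 0.38 (without untrained replicate 1, adjusted p = 0.459) to 0.952 (without untrained replicate 3, adjusted p = 0.028). None of the 6 receptors passed in CA3 or DG with limma. At an unadjusted p under 0.05 there were 0 in CA3 and 1 (Grm4) in DG. In CA3 0.852% of all genes passed, 0.737% higher and 0.116% lower, and in DG 3.39% passed, 1.74% higher and 1.66% lower. In DG the groups of 35.6% of genes did not overlap. Tests of a difference in the Grm4 effect between subregions gave adjusted p from 0.874 to 0.971.

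The combined call of Grm4 did not hold with every animal left out. With trained animal 1 or 2, or untrained animal 1 or 2, left out, the log2 fold change was 0.467, 0.553, 0.478 and 0.474 and the adjusted p 0.12, 0.0899, 0.107 and 0.108. Without only the CA3 library of untrained replicate 1 the log2 fold change was 0.653 (adjusted p = 0.014). With a score of 4 Y-linked genes and Xist as a covariate it was -0.197 (adjusted p = 0.895), and in that limma fit 0 of 14673 genes passed, with 1702 at an unadjusted p under 0.05. Pearson's r between the score and training was -0.984 for CA1 (n = 6), -0.794 for CA3 (n = 5) and -0.929 for DG (n = 5), so sex-linked expression and training cannot be told apart for Grm4. When the 7 libraries with many genes at 0 were given a term of their own, an alternative chosen after seeing the data, Grm4 had 0.544 (adjusted p = 0.0274). Of 4 CA3 pyramidal markers 2 rose over all libraries, and their sum spanned 1047 to 1496 in trained and 695.3 to 1179 in untrained libraries. Of 6 interneuron markers 1 rose (Slc32a1), with sums of 3284 to 3820 and 3105 to 3609. Of 3 oligodendrocyte precursor markers 1 rose (Olig1, 0.309, adjusted p = 0.00941), with sums of 897.7 to 1110 and 810.3 to 960.4. Of 5 astrocyte markers 2 fell (Aqp4, -0.3, and Gja1, -0.183), with sums of 8688 to 10884 and 9862 to 10891. Their part in the Grm4 result was not tested.

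**Figure D2:**
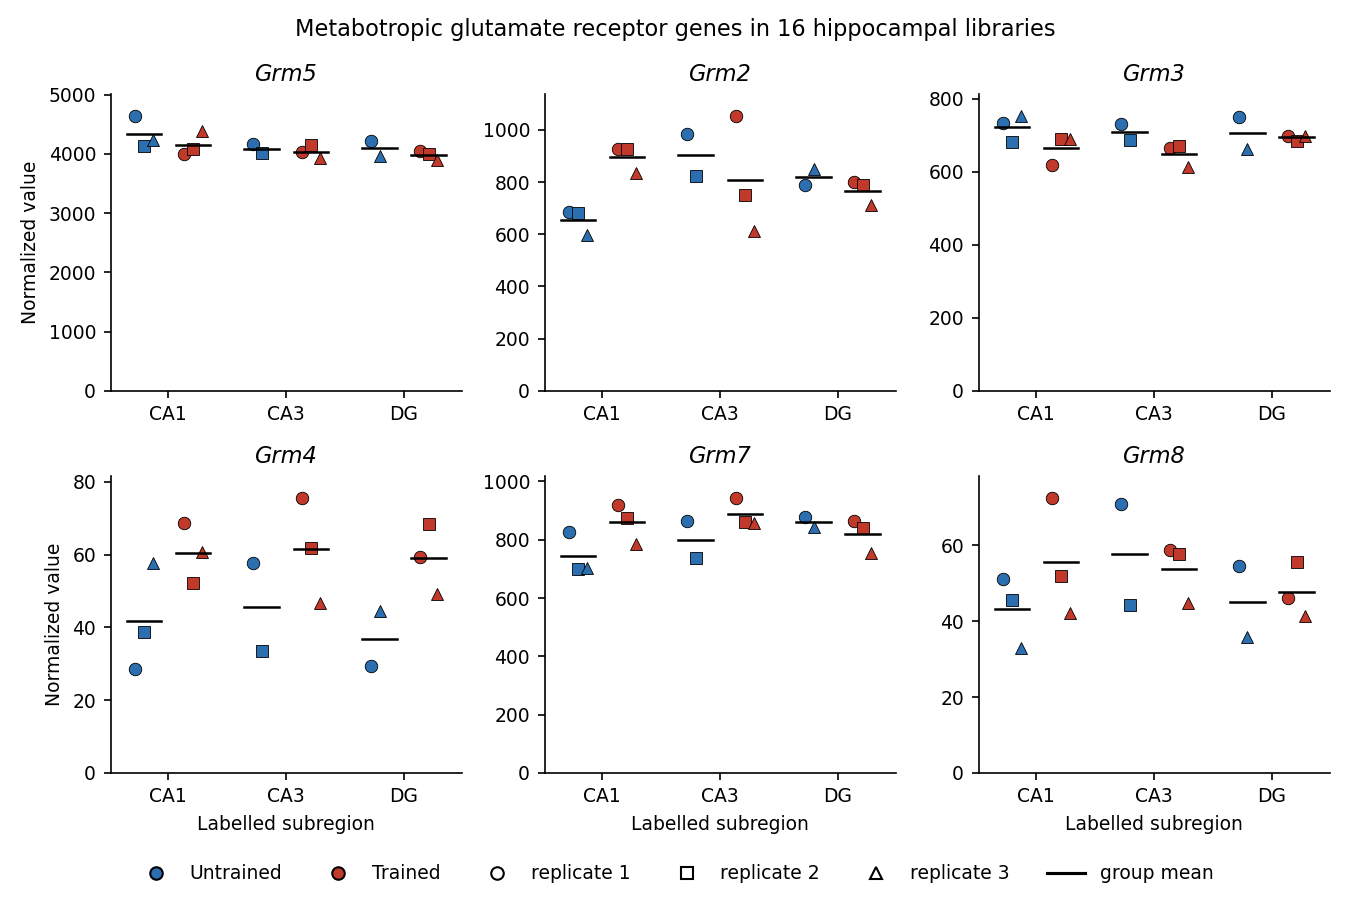
Normalized value of each receptor gene in each library by labelled subregion, with untrained libraries in blue, trained in red, symbols for replicate number and black bars for group means (n = 3 per group, 2 for untrained CA3 and DG). The 3 trained CA1 libraries of Grm2 (835.8 to 927.5) stand above the 3 untrained ones (598.6 to 686.5), and Grm4 spreads from 28.5 to 75.7.

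Grm5, the postsynaptic group I receptor that drives phosphoinositide signalling and long-term depression, varied least of the 6 genes. It lies on the plus strand at chr7:87584168-88134907. Trained CA1 libraries had 3998, 4077.5 and 4379 and untrained ones 4646, 4139 and 4238. Trained CA3 libraries had 4027, 4146 and 3937 and untrained ones 4168 and 4007. Trained DG libraries had 4054, 3996 and 3891 and untrained ones 4220.0 and 3962. The groups overlapped in every subregion, and untrained CA1 replicate 1 was the highest library. Fold changes on the log2 scale were -0.064 for CA1, -0.018 for CA3 and -0.039 for DG, and adjusted p ran from 0.559 to 0.925. Over all libraries it was -0.042, with a 95% interval from -0.115 to 0.03. Without untrained replicate 1 the value in CA3 was 0.01. The coefficient of variation over the 16 libraries was 4.61%, against 27.5% for Grm4.

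Grm7, which sits in the active zone of glutamatergic terminals, had training differences above 0 in CA1 and CA3 that did not pass. The gene covers chr6:110645581-111567230 on the plus strand. Trained CA1 libraries had 919.4, 874.6 and 783.8 and untrained ones 827.5, 699.1 and 702.4, with 1 untrained library inside the trained range. This amounted to 0.211 on the log2 scale (standard error 0.08, unadjusted p = 0.0172, limma adjusted p = 0.151). In CA3 the values were 944.7, 861.7 and 857.2 in trained and 863.9 and 737.1 in untrained libraries, with a log2 fold change of 0.152 (adjusted p = 0.444), 0.266 without untrained replicate 1 and 0.038 without untrained replicate 2. In DG they were 865.5, 839.6 and 754.6 against 876.8 and 845.3, with -0.073 (adjusted p = 0.677). The training effect in CA1 minus that in DG was 0.283 (standard error 0.124, unadjusted p = 0.031, limma adjusted p = 0.225). Grm7 was 872.3 ± 51.9 (SD, n = 7) in libraries with many genes at 0 and 794.1 ± 70.2 (SD, n = 9) in the others.

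Grm8, the group III receptor of the lateral perforant path, was as low as Grm4 but showed no training call. It lies at chr6:27275119-28135178 on the minus strand and contains Mir592, whose reads the values may share. Trained CA1 libraries had 72.6, 51.8 and 42.2 and untrained ones 51.2, 45.5 and 33.0. The CA3 values were 58.7, 57.8 and 44.9 in trained and 71.0 and 44.3 in untrained libraries, and those of DG were 46.1, 55.7 and 41.3 against 54.5 and 35.7. The groups overlapped in each subregion. The log2 fold change was 0.335 in CA1 (standard error 0.242), -0.068 in CA3 (standard error 0.227) and 0.098 in DG (standard error 0.257), with adjusted p from 0.493 to 0.91. The value in CA1 ran from 0.131 (without trained replicate 1) to 0.508 (without trained replicate 3), and that in CA3 was 0.26 without untrained replicate 1. The interval over all libraries, -0.167 to 0.443, does not show that Grm8 was equal in trained and untrained mice.

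**Figure D3:**
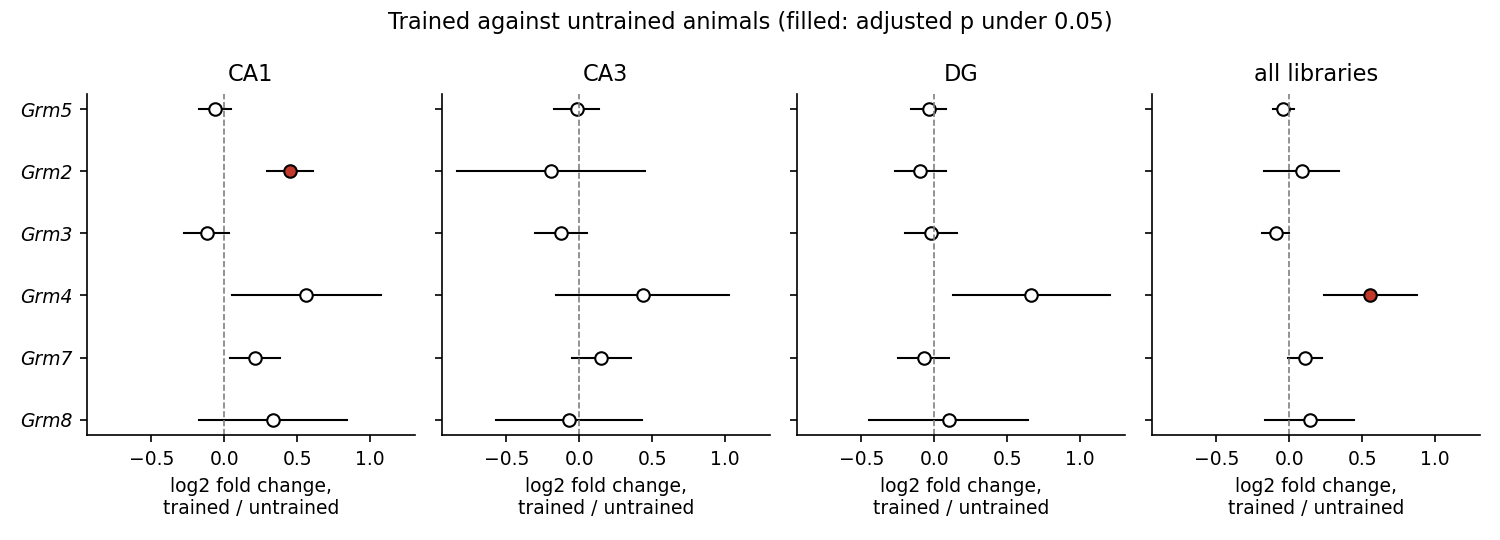
Log2 fold change of trained over untrained mice for each receptor gene in CA1, CA3, DG and all 16 libraries, with 95% confidence intervals from limma as bars and filled points where the adjusted p was under 0.05. Grm2 in CA1 (0.451) and Grm4 over all libraries (0.555) are filled, and the intervals of Grm4 and Grm8 are wider than those of Grm3, Grm5 and Grm7.

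The 6 genes fell into loose groups by how their log2 values moved over the 16 libraries. Grm7 and Grm8 had a Pearson correlation of 0.672, Grm2 and Grm7 one of 0.626, and Grm2 and Grm8 one of 0.595. Grm3 and Grm5 had 0.574. Grm2 and Grm3, although of the same pharmacological group, had -0.14. The libraries share animals and training groups, and these values are descriptions. Among 14667 other genes, those most like Grm2 were Pcsk5 (0.921), a proprotein convertase, Pdzd2 (0.903) and Maml2 (0.894), a Notch coactivator. Most like Grm4 were Elfn1 (0.913), Jph3 (0.87), a junctophilin, and the histone gene Hist1h3d (0.849). Dcun1d2 (0.867) was most like Grm3, Pcgf6 (0.871) like Grm5, the potassium channel gene Kcng3 (0.848) like Grm7, and the protocadherin gene Pcdh17 (0.796) like Grm8.

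Elfn1 encodes a postsynaptic adhesion protein that binds group III receptors across the synapse, and it was also on the list of group II and III signalling genes. The 9 trained libraries had a mean of 135.8 ± 13.3 (SD) and the 7 untrained ones of 115.0 ± 22.5 (SD). The ranges of 115.1 to 156.6 and 86.0 to 148.1 overlapped. Trained libraries were higher by 0.245 on the log2 scale (standard error 0.101, adjusted p = 0.124), which did not pass.

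Genes that carry the receptors' signals were examined as lists, and their counts stand beside 5.23% of all genes called in CA1, 0.852% in CA3, 3.39% in DG and 10.3% over all libraries. Of 25 group I signalling genes, 3 rose and 4 fell in trained CA1, with a median log2 fold change of 0.013 against 0 over all genes. Those named after their values were seen are Dagla (0.206), the enzyme that makes the endocannabinoid 2-arachidonoylglycerol, and Itpr1 (-0.307), an inositol trisphosphate receptor. In CA3 2 of the 25 rose and 0 fell, in DG 0 passed in either direction, and over all libraries 2 rose and 1 fell, with medians of 0.016, -0.001 and -0.005 against -0.006, 0.001 and -0.009 over all genes. Of 25 group II and III signalling genes 1 rose and 1 fell in CA1, 2 rose and 0 fell in CA3, 0 passed in DG, and 4 rose and 2 fell over all libraries, with medians of 0.07, 0.145, -0.021 and 0.072. Those outside the naming rule were the calcium channel gene Cacna1a (0.233) in CA1 and, over all libraries, the G protein genes Gnaz (0.263) and Gnb2 (0.168) and the potassium channel gene Kcnj9 (-0.245). Of 10 genes of glutamate supply and clearance 1 rose and 1 fell in CA1, 0 rose and 1 fell in CA3, 1 rose and 1 fell in DG, and 2 rose and 1 fell over all libraries, with medians of 0.029, 0.034, -0.022 and -0.057. Of 7 tested genes of receptor desensitization and trafficking none passed in a single subregion, and 1 rose over all libraries, the receptor kinase gene Grk2 (0.169, adjusted p = 0.025, named after its value was seen). Without the CA3 library of untrained replicate 1, no gene of the 4 lists passed in CA3, where 1 untrained library was then left and calls over all genes fell from 118 to 17 of 13677. Over all libraries 2, 2, 2 and 0 genes rose and 1, 1, 1 and 0 fell then, in the order of the lists above, with 1000 of 14632 genes called in all, and Grk2 did not pass (0.161, adjusted p = 0.0601).

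The Homer scaffolds, which link Grm5 to inositol trisphosphate receptors and Shank proteins, moved in different directions. Homer3 had values of 406.7, 419.8 and 426.0 in trained CA1 and 211.4, 209.4 and 272.5 in untrained CA1. All trained libraries were above all untrained ones, with a log2 fold change of 0.858 (standard error 0.106, adjusted p = 6.64e-05). Over all libraries it rose by 0.667 (standard error 0.092, adjusted p = 0.000305), and by 0.61 without the CA3 library of untrained replicate 1 (adjusted p = 0.000843). Homer1 went the other way in CA1, with 917.6, 1060.0 and 940.2 in trained and 1453, 1396 and 1542 in untrained libraries, and no overlap. Its log2 fold change was -0.591 (standard error 0.067, adjusted p = 3.17e-05). In CA3 and DG the Homer1 means of trained and untrained libraries were 1072 and 1101, and 1082 and 1033. The values are per gene, so the short activity-induced Homer1 transcript and the long ones cannot be told apart. Homer2 had means of 1323 ± 71.9 and 1946 ± 327 (SD, n = 3 each) in trained and untrained CA1 (log2 fold change -0.545, adjusted p = 0.0186), and fell by 0.31 over all libraries (standard error 0.07, adjusted p = 0.00782), a call that was lost without untrained animal 1, where the log2 fold change was -0.326 (adjusted p = 0.0881). The CA1 changes stand beside the same differences in genes at 0, markers and Xist as that of Grm2, and the part of these differences was not tested. By RT-qPCR in further mice, given as male in the methods, the paper also found Homer3 higher in CA1 of trained animals.

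**Figure D4:**
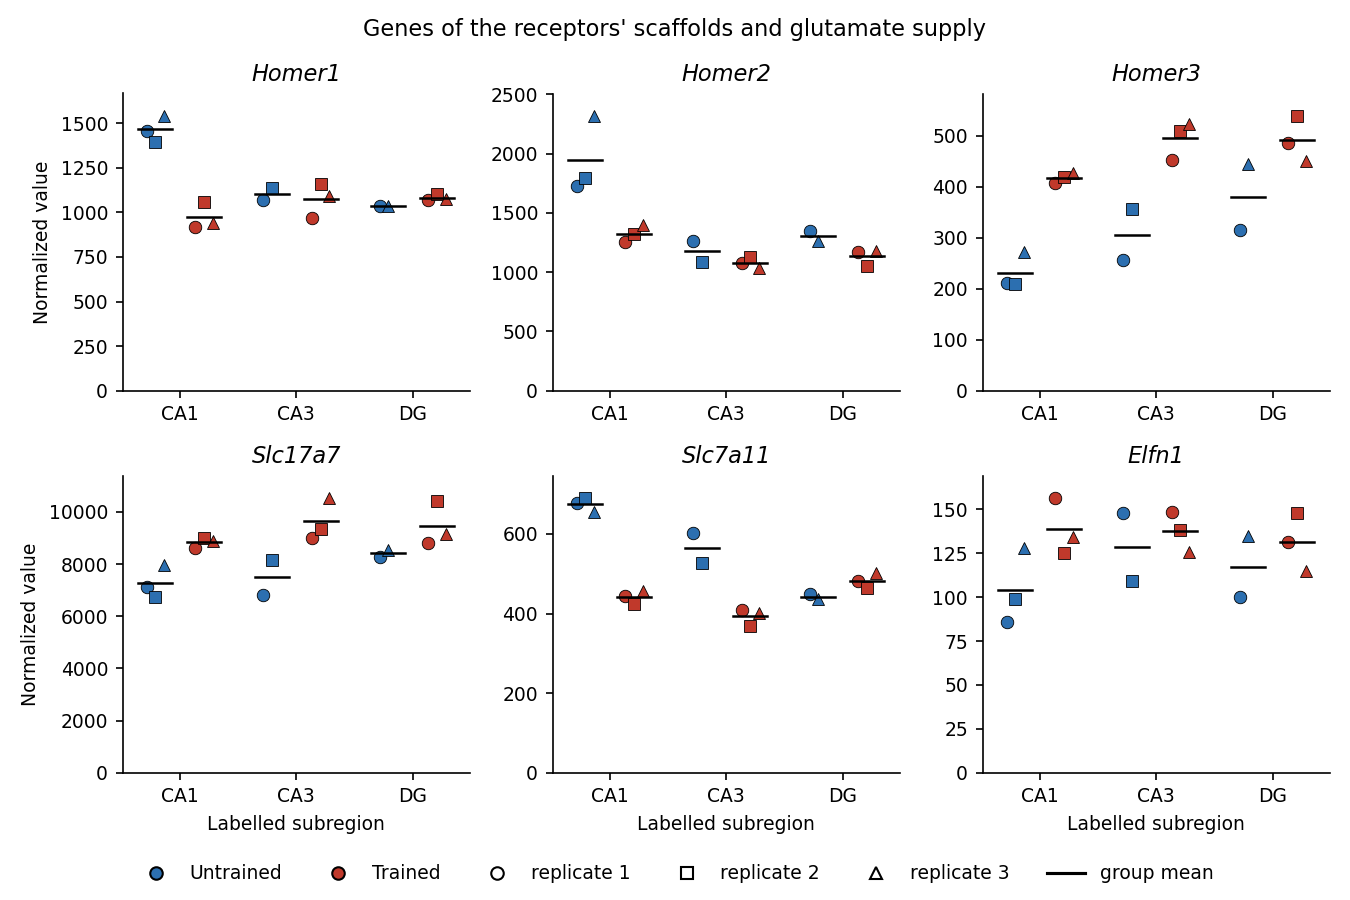
Normalized value of Homer1, Homer2, Homer3, Slc17a7, Slc7a11 and Elfn1 in each library by labelled subregion, drawn as for the receptors (blue untrained, red trained, black bars group means, n = 3 or 2 per group). In CA1 Homer3 is higher (406.7 to 426.0 against 209.4 to 272.5) and Homer1 and Slc7a11 are lower in the trained libraries, while trained and untrained Elfn1 values overlap.

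Other group I signalling genes that passed in CA1 were Ncdn, whose product binds the Grm5 protein (0.316, adjusted p = 0.00751), and the cation channel gene Trpc4 (-0.409, adjusted p = 0.00385). In CA3 the protein kinase C gene Prkcb rose by 0.489 (adjusted p = 0.0266). Among the effectors of Gi/o receptors, the N-type calcium channel gene Cacna1b rose in CA3 by 0.405 (adjusted p = 0.0324) and the adenylyl cyclase gene Adcy5 by 0.481 (adjusted p = 0.0407). Adcy8, another adenylyl cyclase gene, fell by 0.332 over all libraries (adjusted p = 0.0102). Over all 16 libraries Cacna1b (0.221, adjusted p = 0.00317) and Adcy5 (0.225, adjusted p = 0.0362) also passed, and Prkcb did not (0.174, adjusted p = 0.203). Without the CA3 library of untrained replicate 1 the values over all libraries were 0.193 for Cacna1b (adjusted p = 0.0132) and 0.203 for Adcy5 (adjusted p = 0.0938). With each CA3 library left out in turn, the log2 fold changes in CA3 stayed between 0.44 and 0.554 for Prkcb, 0.382 and 0.427 for Cacna1b, and 0.405 and 0.534 for Adcy5. The 3 calls were lost without untrained replicate 1 (adjusted p from 0.207 to 0.264), untrained replicate 2 or trained replicate 2, where calls over all genes fell from 118 to 17, 26 and 7. Without trained replicate 3 Cacna1b did not pass (adjusted p = 0.0537), and without robust estimation Adcy5 (adjusted p = 0.0664) and Prkcb (adjusted p = 0.0508) did not.

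Markers of other cells moved in the same CA3 comparison. Of 4 choroid plexus markers 1 fell (Ttr, -3.285 on the log2 scale), and their sum was 229.7 to 308.7 in trained against 774.6 to 1071.6 in untrained CA3 libraries, with none of the 4 at 0. Of 6 interneuron markers 1 rose (Sst, 0.824), with sums of 3284 to 3820 against 3105 to 3560. Of 3 oligodendrocyte precursor markers 1 rose (Olig1, 0.515), with sums of 1036 to 1108 against 810.3 to 912.5, and of 4 CA3 pyramidal markers 1 rose (Cdh24, 1.13), with sums of 1171 to 1496 against 744.9 to 1179. Of 5 astrocyte markers none passed, with sums of 8688 to 9640 against 9862 to 10891, which did not overlap. Of 5 granule cell markers none passed and all 5 had fold changes below 0, with sums of 5136 to 7521 against 7091 to 8640. Their part in the CA3 values was not tested. Adcy8 over all libraries did not pass without untrained animal 1 (-0.262, adjusted p = 0.145) but did without only its CA3 library (-0.304, adjusted p = 0.0351).

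The receptors' ligand depends on vesicular loading and exchange. Slc17a7, the vesicular glutamate transporter of most hippocampal principal cells, averaged 9318 ± 697 (SD) over the 9 trained libraries and 7660 ± 755 (SD) over the 7 untrained ones. Trained libraries spanned 8637 to 10551 and untrained ones 6733 to 8554, without overlap. The share of all genes without overlap was computed only within single subregions. The change of Slc17a7 was 0.274 on the log2 scale (standard error 0.049, adjusted p = 0.0012), and 0.233 without the CA3 library of untrained replicate 1 (adjusted p = 0.00391). With the score of Y-linked genes and Xist as a covariate it was 0.471 and did not pass (adjusted p = 0.0771), as no gene did in that fit. The markers that moved over all libraries are given with Grm4, and their part was not tested. Slc7a11, the cystine-glutamate exchanger that feeds extrasynaptic glutamate to group II receptors, had 444.3, 424.2 and 456.0 in trained and 677.3, 691.1 and 655.3 in untrained CA1. It fell by 0.61 on the log2 scale in CA1 (standard error 0.075, adjusted p = 6.16e-05) and by 0.518 in CA3 (standard error 0.093, adjusted p = 0.0343). The CA3 value was -0.424 without untrained replicate 1 (adjusted p = 0.319), and the CA3 call was also lost without untrained replicate 2 (-0.612, adjusted p = 0.0724) or trained replicate 2 (-0.473, adjusted p = 0.249), and without robust estimation (adjusted p = 0.0531). Over all libraries it was -0.355 (adjusted p = 0.0106), a call lost without untrained animal 2 (-0.323, adjusted p = 0.0541) or trained animal 2 (-0.318, adjusted p = 0.059). In DG the 3 trained libraries averaged 482.5 ± 18.9 (SD) and the 2 untrained ones 441.9 ± 8.53 (SD), a log2 difference of 0.126 (adjusted p = 0.487). Slc17a6, the second vesicular glutamate transporter, fell in DG by 1.32 on the log2 scale (standard error 0.311, adjusted p = 0.0293), from a low level of 59.5 and 70.5 in untrained to 17.4, 22.2 and 38.4 in trained libraries. That call was lost without untrained replicate 1 (-1.204, adjusted p = 0.0741), which leaves 1 untrained library, trained replicate 2 (-1.253, adjusted p = 0.15) or trained replicate 3 (-1.093, adjusted p = 0.129). It was also lost in one fit of all libraries (adjusted p = 0.184) and without robust estimation (adjusted p = 0.0541), with the fold change as before. Markers moved in DG too. Of 5 granule cell markers 1 fell (Prox1, -0.313, adjusted p = 0.00965), with sums of 6122 to 6487 in trained against 7324 to 7879 in untrained DG libraries. Of 3 endothelial markers 1 fell (Flt1, -0.937, adjusted p = 0.00142), with sums of 252.7 to 267.0 against 410.6 to 504.2. Neither pair of sums overlapped, and their part in the DG values was not tested. In CA1 the calls of Homer1, Homer3, Slc7a11, Ncdn and Trpc4 remained with each replicate left out in turn. The differences in genes at 0, markers and Xist that are given with Grm2 stand beside these CA1 calls too, and their part was not tested.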

How the data were processed

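Bulk RNA sequencing libraries of CA1, CA3 and DG from trained and untrained mice were analysed, 16 in all. According to the labels and methods, rRNA-depleted RNA was sequenced in paired ends, and the authors aligned the reads to the mouse genome with STAR and quantified genes with Salmon. The submitters' processing notes name GRCm38. The deposited values are a normalized signal per gene, neither whole numbers nor scaled for gene length, and sum to between 7607326 and 7984931 per library. The method of normalization is not given in the sources used here, whole reads could not be recovered, and the depth is therefore unknown, so no counting intervals are given.

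Values were compared with limma 3.58.1 in R 4.3.3 after the transformation log2(value + 2). The prior variance followed a trend with the mean level and was estimated robustly, p-values were adjusted by the Benjamini-Hochberg method over all genes tested, and an adjusted p under 0.05 was called. Fold changes on this scale understate those of low genes. A gene entered the CA1 test when 3 or more libraries had a value of 10 or above, and the other tests when 2 or more did. Training was tested within each subregion, and over all libraries with subregion as a term. In the test over all libraries, those of one animal were treated as independent. Subregions were compared with the animal as a block, and differences between training effects in one fit of 6 groups. Libraries are separate tissue samples of single animals. Pairing was checked before the calls were compared. Deviations from the group means of libraries of one animal correlated between -0.108 and 0.092 (14 pairs), and those of trained and untrained libraries with the same number between -0.18 and 0.119 (7 pairs). The method was tested on simulated data in which the noise was independent between libraries. Shared animals, sex-linked expression and differences in genes at 0 were not simulated, so their effect on the calls was not tested.

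The receptors and gene lists were chosen with earlier results of these data known. Pathway genes were named where they were among the 3 higher and 3 lower genes of the lists with the smallest adjusted p in a training comparison, and the 3 genes of highest Pearson correlation with each receptor were taken as most like it. Some genes that these rules name are not reported here. Positions and lengths are from GENCODE vM21 (GRCm38), in which 24464 of 24972 symbols (98.0%) were found, and promoters from RefSeq. Strand-specific counting is not stated. Grm2 and Grm7 have antisense genes whose reads cannot be told apart from theirs.

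Alternatives were a pseudocount of 0.5, other filters, median-of-ratios rescaling, no robust estimation, one fit of all libraries, replicate blocks, a sex-linked covariate and each animal or replicate left out. A term for libraries with over 7000 genes at 0 and the counts of called pathway genes without 1 CA3 library were chosen after seeing the data.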

Additional observations from a re-analysis of the deposited data

Results flagged for a closer look

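Grm5 was set apart in a single library. In untrained CA1 replicate 1 its value was 4645.7, farther from the other 6 untrained libraries, which spanned 3962 to 4238, than Dixon's test allows at the 95% level. Chance flags about 1 in 20 groups, and the trained and the untrained libraries were each checked at both ends for each of the 6 genes. No training effect on a receptor differed between subregions after adjustment.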

How the results depend on the processing

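Of 624 recomputed fold changes of single receptors 587 kept their direction and their side of the threshold, 5 lost the call, 2 gained it and 30 changed direction. All that changed direction belonged to fold changes that had not passed, except Grm4 over all libraries. After adding the sex-linked covariate, none of the 6 receptors passed over all libraries, and the log2 fold changes were -0.378 for Grm2, -0.197 for Grm4, -0.063 for Grm7 and -0.464 for Grm8. With one fit of all libraries, 0 of 6 receptors passed in CA1 (Grm2 adjusted p = 0.105, against 0.00065 to 0.0147 in the other alternatives). Of 240 recomputed fold changes of named pathway genes 207 kept direction and side of the threshold, 33 lost the call and none changed direction. With that covariate the 6 pathway genes named for the comparison over all libraries lost the call (Slc17a7 0.471, adjusted p = 0.0771, and Homer3 0.862, adjusted p = 0.137, among them). The causes were not tested.

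Without the CA3 library of untrained animal 1, the log2 difference between CA1 and CA3 was 0.064 for Grm4 and that between CA3 and DG was -0.024 for Grm2. The difference in training effect was -0.056 for Grm7 (CA1 minus CA3) and 0.032 for Grm2 (CA3 minus DG).

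With each replicate left out in turn, the number of receptors called ranged from 0 to 1 in DG, over all libraries and for CA1 minus CA3. The 1 in DG was Grm4 without untrained replicate 3 (0.952, adjusted p = 0.028, with 1 untrained library left and calls over all genes rising from 473 to 1583), and the 1 for CA1 minus CA3 was Grm2 without trained replicate 1 (0.832, adjusted p = 0.018). The training effect of Grm2 over all libraries ranged from -0.007 to 0.169, that of Grm2 in CA3 from -0.406 to -0.016, that of Grm4 from 0.331 to 0.816 in CA1, from 0.059 to 0.812 in CA3 and from 0.38 to 0.952 in DG, that of Grm7 in CA3 from 0.038 to 0.266, that of Grm3 in DG from -0.112 to 0.066, that of Grm5 from -0.047 to 0.01 in CA3 and from -0.085 to 0.006 in DG, and that of Grm8 from 0.131 to 0.508 in CA1, from -0.397 to 0.26 in CA3, from -0.193 to 0.389 in DG and from -0.011 to 0.386 over all libraries. Grm4 over all libraries ranged from 0.467 to 0.703. The CA1 to CA3 difference ranged from -0.222 to 0.009 for Grm2 and from -0.252 to 0.077 for Grm4. The CA1 to DG difference ranged from -0.085 to 0.092 for Grm2, from -0.058 to 0.025 for Grm3, from -0.058 to 0.027 for Grm7 and from -0.04 to 0.132 for Grm8. The CA3 to DG difference of Grm2 ranged from -0.023 to 0.152, and its training effect in CA3 minus DG from -0.278 to 0.087.

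The replicate numbers did not pair trained with untrained libraries. With the replicate number as a replicate block within subregions, Grm8 had 0.052 in CA3 and -0.015 in DG, Grm2 in CA1 stayed at 0.451 (adjusted p = 0.00307), and calls over all genes in CA3 went from 118 to 1160. Over all libraries the replicate block was instead the animal as a random effect, and Grm4 had 0.557 (adjusted p = 0.0166). The correlation within animals in that fit was -0.035, and a value below 0 cannot make the test of training stricter. No call of a receptor changed with either block. Calls of all genes ranged over the alternatives from 329 to 1877 in CA1, from 7 to 1160 in CA3, from 28 to 1583 in DG and from 0 to 1873 over all libraries. Per kilobase of median transcript length, Grm2 had 367.3, Grm7 467.3, Grm8 17.8 and Grm4 15.2. Depth is unknown, and the low Grm4 had the widest interval in each contrast between subregions.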
